A study of Mus musculus with 12 samples.

Results

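Regulatory T cells are the CD4+ T cells that hold other immune cells in check, and 8 genes that mark them or carry out their work were followed through an RNA sequencing study of sorted T cells in diet-induced fatty liver disease of mice. The genes were Foxp3, Ikzf2, Ikzf4, Il2ra, Tnfrsf18, Tnfrsf4, Izumo1r and Il10, taken by name from the deposited table of 52459 genes. Levels are given in CPM, the count scaled to the size of each library, unless FPKM is named. All 8 were among the 16218 genes with enough reads to be tested. The 12 libraries formed 6 groups of 2. CD4+ T cells of γδTCR-/- mice, which lack the γδ T cell receptor and are called KO here, were taken from mice on the MCD diet (libraries 1 and 2) and on the Ctl, or control, diet (libraries 1 and 2). γδ T cells of wild-type C57BL/6 mice (WT) were taken on the MCD diet (libraries 2 and 4) and the control diet (libraries 6 and 7). CD4+ T cells of WT mice were taken on the MCD diet (libraries 1 and 3) and the control diet (libraries 2 and 3). All mice were 7 weeks old when the diets began and ate them for 6 weeks. MCD stands for methionine- and choline-deficient, a diet that leads to fat storage and inflammation in mouse liver. γδ T cells carry a receptor of a γ and a δ chain in place of the αβ receptor of CD4+ T cells. No tissue is named in the labels, nor whether libraries of a group came from separate mice, so p-values measure only the spread between these samples.

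Foxp3, a forkhead transcription factor on the X chromosome, defines the regulatory lineage, and mice without a working copy die of autoimmunity. Helios (Ikzf2) and Eos (Ikzf4) are zinc-finger factors of the Ikaros family that act beside Foxp3 to keep the lineage stable. Regulatory T cells carry the high-affinity interleukin-2 receptor chain CD25 (Il2ra) because they depend on interleukin-2 made by other cells, and they carry the costimulatory receptors GITR (Tnfrsf18) and OX40 (Tnfrsf4) and the folate receptor 4 protein (Izumo1r). They release interleukin-10 (Il10), a cytokine that dampens macrophage and T cell responses. Most of these genes are not used by regulatory T cells alone. Activated conventional T cells raise Il2ra, Tnfrsf18 and Tnfrsf4, type 1 regulatory T cells make interleukin-10 without Foxp3, and follicular helper T cells carry Izumo1r.

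On GRCm38 with the GENCODE vM21 annotation, the transcription factor genes lay at chrX:7573644-7595245 (Foxp3, plus strand), chr1:69531214-69687245 (Ikzf2, minus strand) and chr10:128630843-128645991 (Ikzf4, minus strand). The receptor genes lay at chr2:11642807-11693193 (Il2ra, plus strand), chr4:156026164-156028895 (Tnfrsf18, plus strand), chr4:156013843-156016612 (Tnfrsf4, plus strand) and chr9:14885814-14903949 (Izumo1r, minus strand). Il10 lay at chr1:131019845-131024974 on the plus strand. Tnfrsf4 and Tnfrsf18 are neighbours on the same strand of chromosome 4, 9551 bp apart, with 2 annotated genes and 0 protein-coding genes between them. Foxp3 shares exonic sequence with Flicr on its own strand and with Ccdc22, Ppp1r3f and Gm36995 on the other, and Ikzf2, Ikzf4 and Tnfrsf18 each share some with 1 transcript on the opposite strand. The strand setting of the counting is not given in the sources used here, so reads in these overlaps cannot be assigned with certainty.

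RefSeq promoter windows on GRCm38.p6, from 250 bases before to 50 bases after an annotated start, were held for 5 of the 8 genes (Foxp3, Il2ra, Tnfrsf18, Tnfrsf4 and Izumo1r). Upstream stretches of the neighbouring Tnfrsf4 and Tnfrsf18 are shown because both had their lowest CD4+ group mean in control-diet KO cells. Il2ra, Ikzf2, Izumo1r and Il10 had their lowest CD4+ group mean there too. The Tnfrsf4 libraries overlapped there with WT control libraries, and Tnfrsf4 averaged lower still in γδ T cells. That of Il2ra is shown because it was the receptor gene called higher in γδ T cells. The stretches are chr4:156013611-156013694 (Tnfrsf4), chr4:156026072-156026163 (Tnfrsf18) and chr2:11642542-11642791 (Il2ra), all on the plus strand and clear of annotated exons. Capitals mark a match to the NF-kB pattern GGGANNNNCC.
Tnfrsf4: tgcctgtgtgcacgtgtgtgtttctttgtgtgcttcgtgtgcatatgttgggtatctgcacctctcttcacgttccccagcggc
Tnfrsf18: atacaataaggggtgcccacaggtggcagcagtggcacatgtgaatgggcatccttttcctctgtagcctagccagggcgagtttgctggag
Il2ra: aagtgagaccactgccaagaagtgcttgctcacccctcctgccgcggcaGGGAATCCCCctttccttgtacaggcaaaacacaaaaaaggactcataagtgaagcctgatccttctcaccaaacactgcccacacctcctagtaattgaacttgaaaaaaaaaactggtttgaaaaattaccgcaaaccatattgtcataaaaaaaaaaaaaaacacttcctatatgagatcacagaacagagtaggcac
Patterns for AP-1 (TGANTCA), STAT (TTCNNNGAA), NF-kB (GGGANNNNCC), forkhead factors (TGTTTNC) and NFAT (TGGAAA) were searched on both strands of the whole windows. The Il2ra window held the NF-kB match alone, which 20.7% of 32851 mouse windows of that length also hold. The Tnfrsf18 window held 1 STAT match at chr4:156026223-156026231, downstream of the printed stretch, against 8.3% of windows. The Tnfrsf4 window held 1 NFAT match at chr4:156013475-156013480, before the printed stretch, against 21.4% of windows. A match is a description of letters and not a bound site.

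Total counts ran from 17035638 to 23203603 per library, of which 40.8% to 56.8% came from the mitochondrial genome. Both KO control libraries stood apart from the other CD4+ libraries here. Their mitochondrial share was 52.7% and 51.1%, against 40.8% to 43.9%, and their TMM scaling factors were 0.953 and 0.957, against 1.17 to 1.27. They also had the fewest genes at 10 counts among CD4+ libraries, 12511 and 12100. The part of this in the comparisons that use KO control cells was not tested. Genes that reached 10 counts numbered 8989 to 12174 per γδ library and 12100 to 13402 per CD4+ library. A floor of 3 counts in a library corresponded to 0.130 to 0.247 CPM. Replicates of γδ T cells on the MCD diet stood furthest apart, with Pearson's r of 0.732 across genes, against 0.807 to 0.863 in the other 5 groups. Cd4 read 0.974 to 4.29 CPM in γδ libraries and 631 to 1446 CPM in CD4+ libraries, and Trdc, the δ-chain constant gene, read 537 to 732 CPM in γδ libraries and 0.231 to 7.93 CPM in CD4+ libraries. Which gene was deleted is not stated in the labels, and the low Trdc of CD4+ T cells of either genotype is no check of it.

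**Figure D1:**
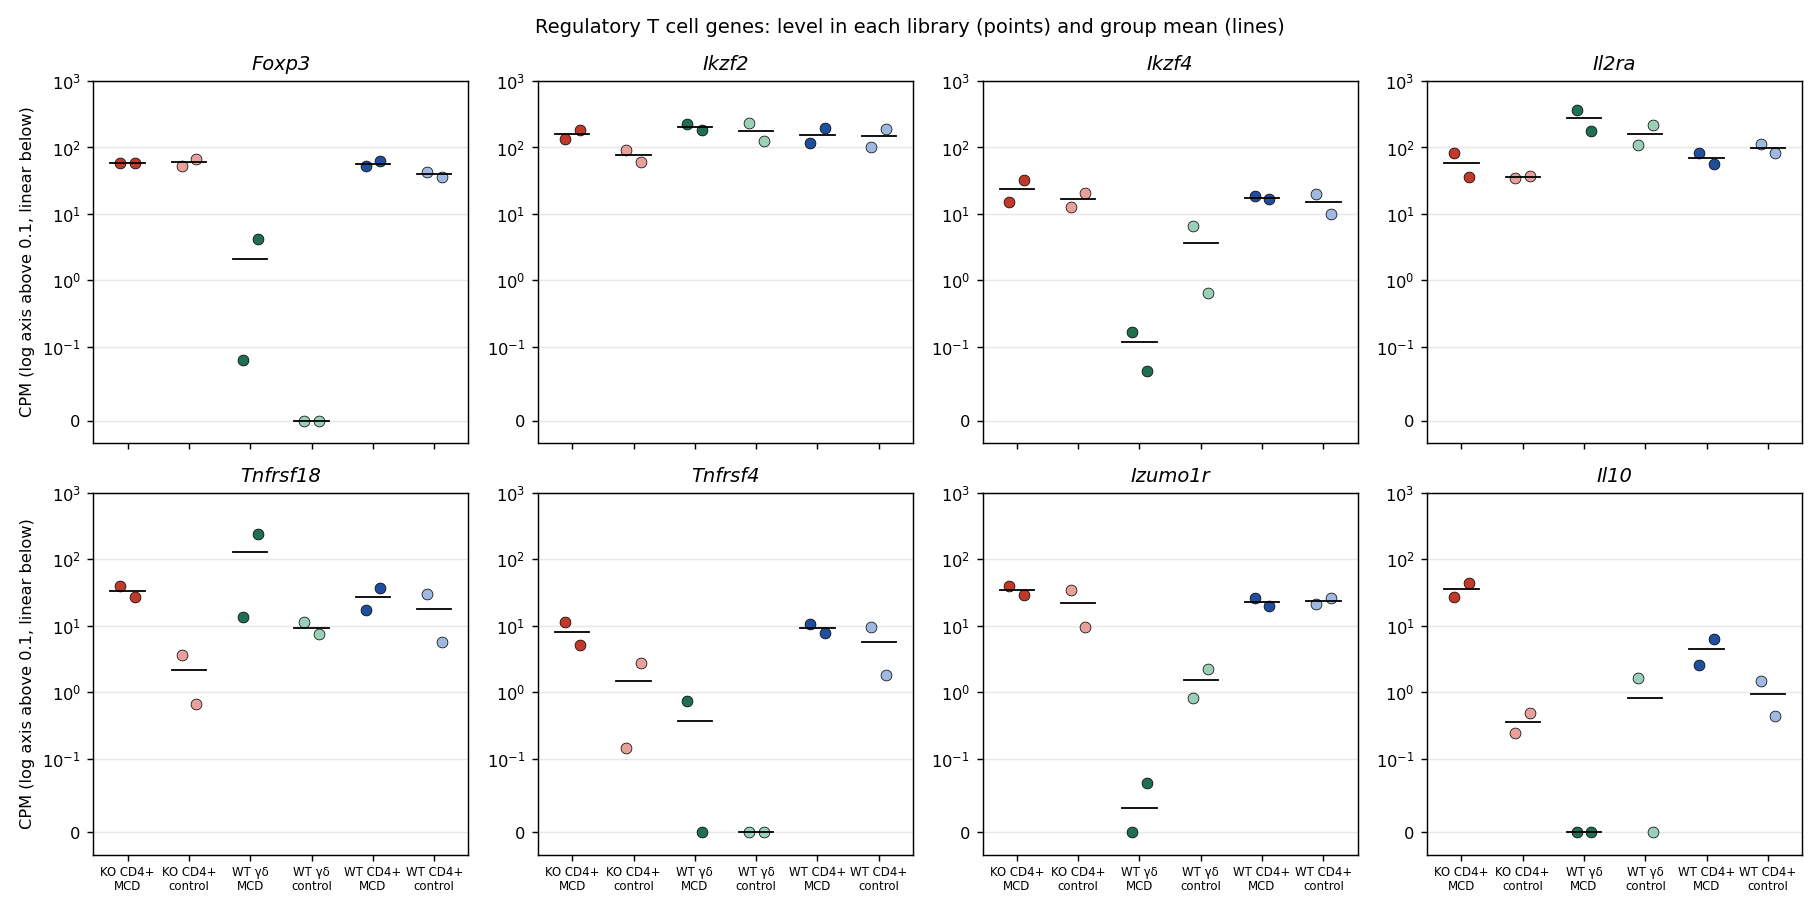
Level of each of the 8 genes in CPM (vertical axis, logarithmic above 0.1 and linear below) in the 2 libraries of each group (points), with the group mean as a line. Foxp3 stays at 36.3 to 66.5 CPM across CD4+ T cells and at 0 to 4.16 CPM across γδ T cells, and Il10 read highest in the KO MCD group.

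Within the 8 CD4+ libraries Foxp3 had the smallest fold span of the 3 transcription factor genes. It had 57.9 and 57.9 CPM in KO MCD libraries and 52.4 and 66.5 CPM in KO control libraries. In WT CD4+ T cells it had 53.0 and 61.6 CPM on the MCD diet, against 42.9 and 36.3 CPM on the control diet. The 8 CD4+ libraries spanned 1.83-fold, with 837 to 1384 counts each, and the WT control libraries were the lowest. In γδ T cells Foxp3 had 1 and 62 counts on the MCD diet and 0 and 0 counts on the control diet. Nearly all γδ signal thus came from MCD library 4, at 4.16 CPM, and that library had 1.21 CPM of Cd4.

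Helios was carried by every cell type. Ikzf2 had 134 and 183 CPM in KO MCD libraries and 90.6 and 61.3 CPM in KO control libraries. WT CD4+ T cells had 116 and 198 CPM on the MCD diet, against 103 and 192 CPM on the control diet. γδ T cells had 229 and 181 CPM on the MCD diet, against 231 and 124 CPM on the control diet. Both KO control libraries lay below the other 10. The Eos gene Ikzf4 had 15.2 and 32.7 CPM in KO MCD, 12.7 and 20.9 CPM in KO control, 18.5 and 16.6 CPM in WT CD4+ MCD and 19.9 and 10.1 CPM in WT CD4+ control libraries. These CD4+ groups overlapped. In γδ T cells Ikzf4 had 2 and 1 counts on the MCD diet and 129 and 12 counts on the control diet, below each CD4+ library in CPM.

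The receptor genes varied more. Il2ra had 82.2 and 35.9 CPM in KO MCD and 34.3 and 36.7 CPM in KO control libraries. WT CD4+ T cells had 82.8 and 55.8 CPM on the MCD diet, against 113 and 83.6 CPM on the control diet. γδ T cells had 368 and 179 CPM on the MCD diet, against 108 and 214 CPM on the control diet, and all but 1 γδ library lay above all CD4+ libraries. Tnfrsf18 had 40.2 and 26.7 CPM in KO MCD and 3.60 and 0.673 CPM in KO control libraries. WT CD4+ T cells had 17.5 and 36.6 CPM on the MCD diet, against 30.5 and 5.72 CPM on the control diet. γδ T cells had 13.4 and 242 CPM on the MCD diet, against 11.4 and 7.41 CPM on the control diet. MCD library 4 of γδ T cells was the highest of all 12 libraries and KO control library 2, with 14 counts, the lowest.

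The neighbouring Tnfrsf4 gave 244 and 111 counts in KO MCD libraries and 3 and 58 counts in KO control libraries, or 11.2 and 5.10 CPM against 0.146 and 2.79 CPM. WT CD4+ T cells had 10.8 and 7.80 CPM on the MCD diet, against 9.56 and 1.82 CPM on the control diet. In γδ T cells Tnfrsf4 gave 9 and 0 counts on the MCD diet and 0 and 0 counts on the control diet. OX40 mRNA was thus at or under 9 counts in each γδ library and at 3 counts in 1 KO control library. Izumo1r had 40.4 and 29.0 CPM in KO MCD, 34.8 and 9.46 CPM in KO control, 26.0 and 19.98 CPM in WT CD4+ MCD and 21.1 and 25.8 CPM in WT CD4+ control libraries. It had 0 and 1 counts in γδ T cells on the MCD diet and 16 and 41 counts on the control diet.

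The cytokine gene Il10 had the widest span in CD4+ T cells, 184-fold between the lowest and the highest library. It gave 588 and 973 counts in KO MCD libraries and 5 and 10 counts in KO control libraries, or 27.1 and 44.7 CPM against 0.244 and 0.480 CPM. WT CD4+ T cells had 53 and 139 counts on the MCD diet and 32 and 10 counts on the control diet, or 2.60 and 6.41 CPM against 1.47 and 0.433 CPM. Both KO MCD libraries lay above all others, and in each genotype both MCD libraries lay above both control libraries. In γδ T cells Il10 had 0 and 0 counts on the MCD diet and 32 and 0 counts on the control diet.

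The order of the 8 genes, read in the deposited FPKM, which divide by gene length, differed between groups. In KO MCD cells Il10 (mean 25.7 FPKM) and Tnfrsf18 (20.6 FPKM) came first, and their libraries overlapped each other but not those of the third gene, Izumo1r (14.04 FPKM). In KO control cells Foxp3 came first at 13.9 FPKM and Il10 last at 0.255 FPKM. In WT CD4+ T cells on the MCD diet Tnfrsf18 (17.1 FPKM), Foxp3 (13.8 FPKM), Ikzf2 (12.98 FPKM) and Il2ra (11.6 FPKM) followed each other with overlapping libraries. On the control diet Il2ra led at 16.3 FPKM and Il10 was last at 0.690 FPKM. In γδ T cells the first 3 places went to Tnfrsf18, Il2ra and Ikzf2 on the MCD diet (82.7, 48.1 and 17.7 FPKM) and to Il2ra, Ikzf2 and Tnfrsf18 on the control diet (26.6, 14.3 and 5.79 FPKM). The first place of Tnfrsf18 on the MCD diet came from library 4, at 156.56 FPKM. In library 2 it had 8.89 FPKM, below Il2ra (65.25 FPKM) and Ikzf2 (20.01 FPKM). The other 5 genes averaged at most 0.620 FPKM in either γδ group. Il2ra, Ikzf2 and Tnfrsf18 were thus read in γδ T cells at levels that overlapped or exceeded those of WT CD4+ T cells, while Foxp3 was at or near 0 there.

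The first comparison asked how these genes differed between the diets in CD4+ T cells of KO mice. Mean Il10 was 35.9 ± 12.5 CPM in KO MCD and 0.362 ± 0.167 CPM in KO control cells (SD, n = 2 each), a ratio of 99.2. Mean Tnfrsf18 was 33.4 ± 9.53 CPM in KO MCD and 2.14 ± 2.07 CPM in KO control cells, a ratio of 15.6, and mean Ikzf2 was 159 ± 34.8 CPM in KO MCD and 76.0 ± 20.7 CPM in KO control cells, a ratio of 2.09. Foxp3 itself averaged 57.9 ± 0.0308 CPM in KO MCD and 59.5 ± 9.95 CPM in KO control cells. In bulk samples such as these, fewer cells of a type and less RNA per cell cannot be told apart.

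In the quasi-likelihood test of edgeR, adjusted by Benjamini-Hochberg over all genes, the log2 fold change was 6.28 ± 2.04 for Il10 (SE, unadjusted p = 0.00681, adjusted p = 0.585), 3.90 ± 1.25 for Tnfrsf18 (unadjusted p = 0.00723, adjusted p = 0.589) and 1.06 ± 0.44 for Ikzf2 (unadjusted p = 0.0299, adjusted p = 0.787). It was 2.40 ± 1.94 for Tnfrsf4, 0.73 ± 0.50 for Il2ra and -0.04 ± 0.96 for Foxp3, with adjusted p = 0.873, 0.824 and 1. None of the 8 genes passed the adjusted threshold of 0.05, against 0.0370% of all genes tested, and 3 of 8 had an unadjusted p under 0.05, against 6.06%. Il10, Tnfrsf18, Ikzf2 and Tnfrsf4, 4 of the 8, were higher in both KO MCD libraries than in both KO control libraries, against 20.8% of all genes. The adjusted p of Il10 was 0.00175 in DESeq2 and 0.0217 in a fit of the 8 CD4+ libraries alone, and that of Tnfrsf18 was 0.0221 in DESeq2 and 0.0158 without γδ MCD library 2, so these calls depended on the fit. Over all alternatives the adjusted p ranged from 0.00175 to 1 for Il10 and from 0.00267 to 1 for Tnfrsf18.

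**Figure D2:**
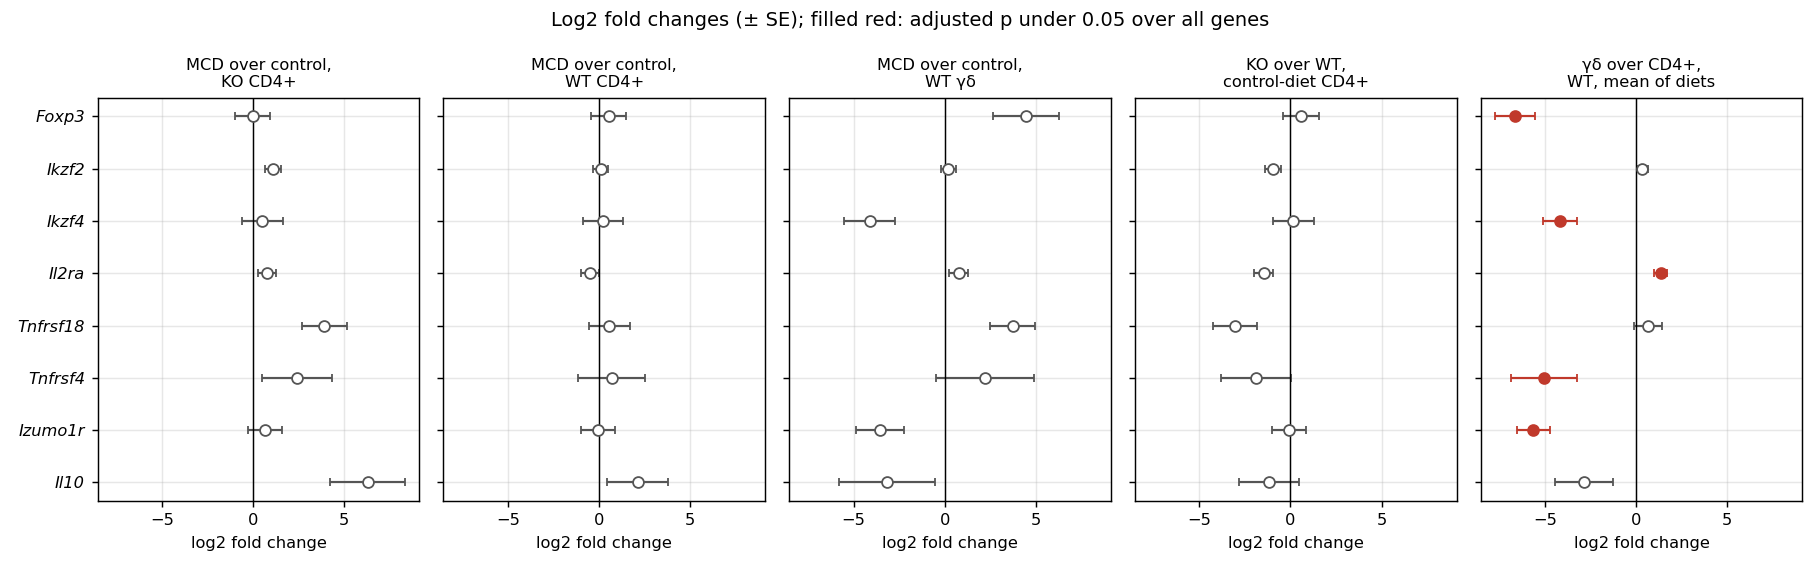
Log2 fold change (horizontal axis) with its standard error for each gene in 5 comparisons, each over 2 libraries a group, or 4 a cell type in the rightmost panel; filled red points have an adjusted p under 0.05 over all 16218 genes. Red points stand in the comparison of γδ with CD4+ T cells alone, where 4 genes lie below 0 and Il2ra above it. Standard errors come from the fit without the prior count of 2 that entered the fold changes, so bars and p-values need not match.

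The diets were then compared in WT CD4+ T cells. Il10 averaged 4.51 ± 2.69 CPM on the MCD diet, against 0.952 ± 0.734 CPM on the control diet (log2 fold change 2.13 ± 1.67), and Foxp3 averaged 57.3 ± 6.09 CPM on the MCD diet, against 39.6 ± 4.72 CPM on the control diet (0.53 ± 0.96). Both were higher in both MCD libraries, a pattern of 16.7% of all genes. Il2ra averaged 69.3 ± 19.1 CPM on the MCD diet, against 98.5 ± 21.1 CPM on the control diet (-0.51 ± 0.50) and was lower in both MCD libraries, as were 17.2% of all genes. No member passed in edgeR, with adjusted p = 1 for each, and no gene of all those tested did (0%). An unadjusted p under 0.05 was found for 0 of 8, against 2.13% of all genes, and DESeq2 called 0 of them.

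The difference between the diet effects of the genotypes (KO minus WT) was tested directly. It was 3.33 ± 1.62 on the log2 scale for Tnfrsf18 (unadjusted p = 0.0555), 4.15 ± 2.38 for Il10 (unadjusted p = 0.0901), 1.24 ± 0.70 for Il2ra and 0.97 ± 0.61 for Ikzf2. All 8 had an adjusted p of 1 in edgeR, 0 of 8 had an unadjusted p under 0.05 (4.33% of all genes did), and DESeq2 called 0 of 8. No gene of the whole table was called in edgeR (0%). The larger ratios in KO cells were therefore not shown to differ from those in WT cells.

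Averaged over both genotypes, Il10 had the clearest separation. It read 2.60 to 44.7 CPM in the 4 MCD libraries and 0.244 to 1.47 CPM in the 4 control libraries of CD4+ T cells, so the diets did not overlap, as in 2.54% of all genes. Its log2 fold change was 4.20 ± 1.30 (edgeR, unadjusted p = 0.00506, adjusted p = 0.587), and it was higher in 4 of 4 MCD libraries than in any control library. That of Tnfrsf18 was 2.24 ± 0.82 (adjusted p = 0.747), with overlapping libraries. None of the 8 genes was called in edgeR (0.0370% of all genes were), while 2 of 8 had an unadjusted p under 0.05, against 6.08%. DESeq2 and the fit of the 8 CD4+ libraries each called 1 gene, Il10, with adjusted p = 0.00400 and 0.0239.

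**Figure D3:**
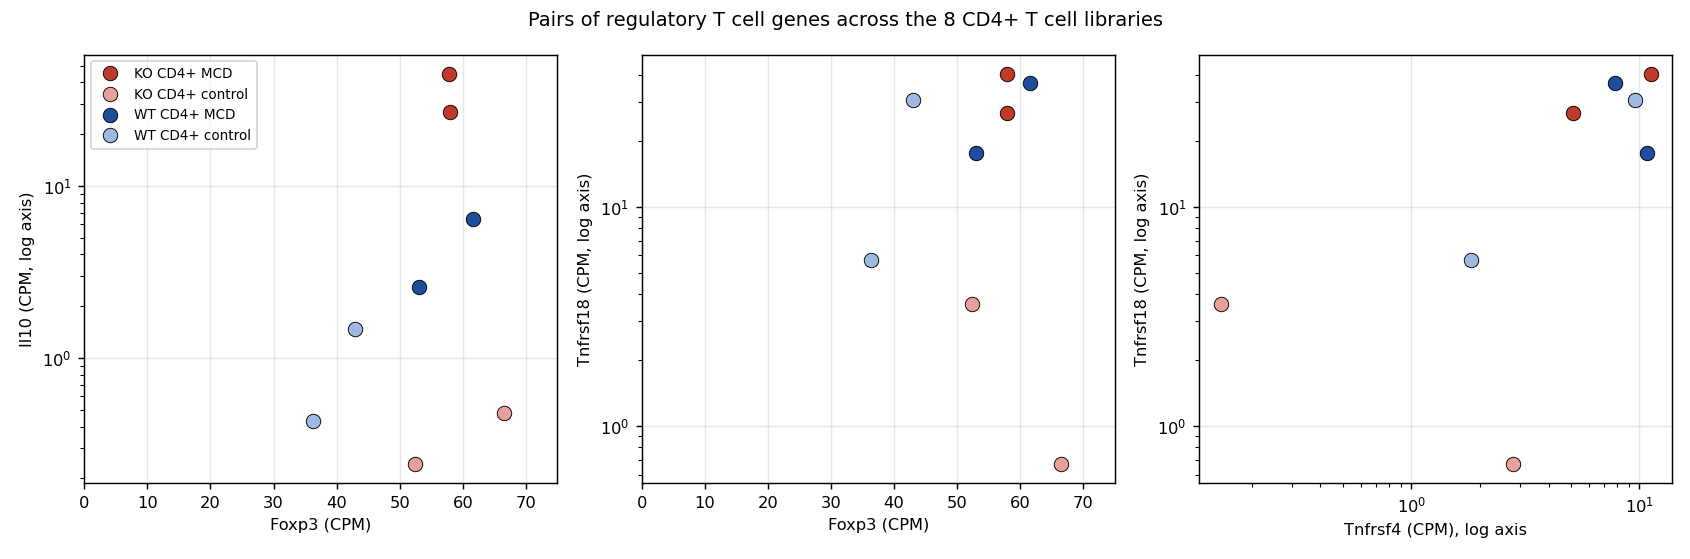
Levels in CPM of Il10 against Foxp3, Tnfrsf18 against Foxp3 and Tnfrsf18 against Tnfrsf4 in the 8 CD4+ libraries (points, coloured by group; vertical axes and the horizontal axis of Tnfrsf4 are logarithmic). KO MCD and KO control libraries hold similar Foxp3, 52.4 to 66.5 CPM, and lie at opposite ends for Il10, 27.1 and 44.7 CPM against 0.244 and 0.480 CPM.

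The second question was how CD4+ T cells of KO mice differed from those of WT mice on the same diet. On the control diet 3 genes were lower in both KO libraries: Il2ra averaged 35.5 ± 1.67 CPM in KO and 98.5 ± 21.1 CPM in WT cells (2.78-fold lower), Tnfrsf18 averaged 2.14 ± 2.07 CPM in KO and 18.1 ± 17.5 CPM in WT cells (8.47-fold lower), and Ikzf2 averaged 76.0 ± 20.7 CPM in KO and 147 ± 63.2 CPM in WT cells (1.94-fold lower). Foxp3 was the 1 gene higher in both KO libraries, at 59.5 ± 9.95 CPM in KO and 39.6 ± 4.72 CPM in WT cells. Over all genes, 20.6% were lower and 16.7% higher without overlap. The log2 fold changes of -1.47 ± 0.50 for Il2ra (unadjusted p = 0.0116), -3.02 ± 1.21 for Tnfrsf18 (unadjusted p = 0.0236) and -0.95 ± 0.44 for Ikzf2 (unadjusted p = 0.0469) had an adjusted p of 1 in edgeR. The test called 0 of 8 (0.0247% of all genes were called), 3 of 8 against 4.03% of all genes had an unadjusted p under 0.05, and DESeq2 called 0. Without WT control library 2 the log2 fold change of Tnfrsf18 was -1.38.

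On the MCD diet most of the 8 genes had overlapping libraries between the genotypes. Foxp3 averaged 57.9 ± 0.0308 CPM in KO and 57.3 ± 6.09 CPM in WT cells, Ikzf2 159 ± 34.8 CPM in KO and 157 ± 58.0 CPM in WT cells, and Tnfrsf18 33.4 ± 9.53 CPM in KO and 27.0 ± 13.5 CPM in WT cells. Il10 did not overlap, at 35.9 ± 12.5 CPM in KO and 4.51 ± 2.69 CPM in WT cells, a ratio of 7.96 (log2 fold change 2.96 ± 1.71, edgeR adjusted p = 1). Il10 and Izumo1r were higher in both KO libraries, as were 15.9% of all genes. No member and no other gene passed in edgeR (0%). The unadjusted p was under 0.05 for 0 of 8, against 2.08% of all genes, and DESeq2 called 0 of them.

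γδ and CD4+ T cells of WT mice were compared over both diets, giving each diet equal weight. In this comparison 4 genes were called lower in γδ T cells and lay below every WT CD4+ library, as did 8.86% of all genes. Foxp3 averaged 1.06 ± 2.07 CPM in γδ and 48.4 ± 11.1 CPM in CD4+ T cells (SD, n = 4 each), 45.7-fold lower, with a log2 fold change of -6.65 ± 1.09 (edgeR, adjusted p = 0.000785). Izumo1r averaged 0.775 ± 1.03 CPM in γδ and 23.2 ± 3.12 CPM in CD4+ T cells (-5.63 ± 0.90, adjusted p = 0.00117). Ikzf4 averaged 1.86 ± 3.14 CPM in γδ and 16.2 ± 4.35 CPM in CD4+ T cells (-4.19 ± 0.94, adjusted p = 0.0131), and Tnfrsf4 averaged 0.186 ± 0.371 CPM in γδ and 7.48 ± 3.97 CPM in CD4+ T cells (-5.08 ± 1.81, adjusted p = 0.0369).

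Il2ra was called in the other direction, at 217 ± 109 CPM in γδ and 83.9 ± 23.5 CPM in CD4+ T cells, a ratio of 2.59 with overlapping libraries (1.34 ± 0.36, adjusted p = 0.0421). In all, 5 of 8 genes were called, against 5.96% of all genes, with 4 lower against 2.53% and 1 higher against 3.42%. Il10 (0.407 ± 0.813 CPM in γδ and 2.73 ± 2.61 CPM in CD4+ T cells, -2.85 ± 1.57, adjusted p = 0.0874) and Ikzf2 (191 ± 50.6 CPM in γδ and 152 ± 49.8 CPM in CD4+ T cells, 0.33 ± 0.31, adjusted p = 0.547) did not pass. Nor did Tnfrsf18, at 68.6 ± 116 CPM in γδ and 22.6 ± 13.8 CPM in CD4+ T cells. The calls of Foxp3 and Izumo1r held in every alternative run, with adjusted p of at most 0.0101. Those of Il2ra and Tnfrsf4 were each lost in 5 of 12 fits without 1 library, at adjusted p up to 0.136 and 0.0899. The count fell to 3 without WT CD4+ control library 2, WT CD4+ MCD library 1, WT CD4+ MCD library 3 or γδ control library 7. The calls of Ikzf4, Il2ra and Tnfrsf4 were lost when the WT libraries alone were fitted, at adjusted p = 0.0591, 0.0699 and 0.0783.

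Within γδ T cells the diet comparison rested on few counts for most of the genes. Ikzf4 had 3 counts over both MCD libraries and 141 over both control libraries, and the control level was 33.3 times the MCD level, with an exact 95% interval of 11.2 to 163 that covers counting error only. Of the 141 counts 129 came from control library 6, and the fitted log2 fold change of Ikzf4, -4.10 with all libraries, was -1.80 without it. Izumo1r had 1 count on the MCD diet and 57 on the control diet. Il10 had 0 counts on the MCD diet and was at least 3.62-fold lower there, taking 3 counts in each library as the floor. Its 32 control counts all came from library 6, and control library 7 had 0, so without library 6 there is no such bound. Foxp3 was at least 13.5-fold higher on the MCD diet by the same floor, through 62 counts in library 4, with 1 count in library 2, so without library 4 there is no such bound. Tnfrsf18 averaged 128 ± 162 CPM on the MCD diet, against 9.42 ± 2.84 CPM on the control diet, also through library 4. Its log2 fold change was 3.75 ± 1.23 (edgeR, adjusted p = 0.179) and 0.50 without that library. None of the 8 was called, as no gene was (0%), and 6 of 8 had an unadjusted p under 0.05, against 17.5% of all genes. Among those 6, Foxp3, Il10 and Tnfrsf4 reached 10 counts in at most 1 γδ library, so they entered the test through CD4+ libraries. Il10 and Tnfrsf4 overlapped between the diets, and Ikzf4 and Izumo1r were near 0 on the MCD diet. The share is therefore no result about the 8 genes. The adjusted p of the 8 ranged from 0.0912 to 0.852 in edgeR, and DESeq2 called 5 of the 8 and 2105 of all 16218 genes. Other cell types' markers differed between these groups as well. The 10 genes of sinusoidal endothelium summed to 126 to 133 CPM on the MCD diet, with 4 of 10 at 0 in both libraries (Kdr, Oit3, Lyve1 and Bmp2), and to 690 to 1470 CPM on the control diet, with 0 of 10 at 0 in both. The 10 genes of neutrophils and monocytes summed to 239 to 426 CPM on the MCD diet and 105 to 131 CPM on the control diet, with 2 of 10 at 0 in both libraries on either diet. B and plasma cell genes (282 to 496 CPM on the MCD diet, against 637 to 665 CPM on the control diet), NK and innate lymphoid genes (683 to 751 CPM on the MCD diet, against 1124 to 1173 CPM on the control diet) and CD8 T cell genes (78.9 to 130.4 CPM on the MCD diet, against 210.2 to 347 CPM on the control diet) did not overlap either. Of the neutrophil and monocyte genes, Clec4e, Il1b, Csf3r, S100a8 and S100a9 were higher in both γδ MCD libraries. Mmp9 was lower in both (mean 1.59 against 27.9 CPM), and Ly6c2 averaged lower (37.1 against 56.2 CPM). Rora, of the NK and innate lymphoid genes, was higher in both γδ MCD libraries (mean 296 against 263 CPM). Most of the gap in the CD8 T cell sum was Cd8a, whose mean was 65.9 CPM in γδ MCD libraries, against 246 CPM in γδ control libraries. Crtam was also lower in both γδ MCD libraries (mean 5.95 against 19.0 CPM). Cd8b1 overlapped (10.4 against 11.8 CPM), and Gzmk went the other way (22.4 against 1.42 CPM). Sums of macrophage, dendritic cell and hepatocyte genes overlapped. The part of such cells in the γδ values was not tested.

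The wider regulatory programme was read from 30 further genes of these cells. Between the diets in KO cells, 23 of 30 had a log2 fold change above 0, against 51.0% of all genes, with a median of 1.11 against 0.03 over all genes, and 0 passed the threshold. The 8 genes themselves had 7 above 0 and a median of 0.90. By p-value the list was led by Fgl2, a secreted fibrinogen-like protein of regulatory T cells, at 92.1 ± 34.1 CPM in KO MCD and 14.5 ± 3.89 CPM in KO control cells (edgeR, adjusted p = 0.0591). Then came Prdm1, which encodes Blimp-1, a factor of effector regulatory T cells, at 122 ± 46.4 CPM in KO MCD and 17.3 ± 8.18 CPM in KO control cells (adjusted p = 0.217). Tnfrsf1b, the type 2 receptor for tumour necrosis factor, had 117 ± 3.74 CPM in KO MCD and 48.2 ± 2.02 CPM in KO control cells, and Entpd1, the ectonucleotidase CD39, had 49.9 ± 18.9 CPM in KO MCD and 9.30 ± 1.93 CPM in KO control cells.

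A mixed list of genes of interleukin-10 and of type 1 regulatory T cells, which make it without Foxp3, lay furthest from 0. It is not a list of markers of that cell type alone. All 13 were above 0, with a median log2 fold change of 2.47, and 1 was called. Maf, a transcription factor that drives Il10 in T cells, rose to 265 ± 6.54 CPM in KO MCD cells, against 40.3 ± 5.05 CPM in KO control cells (log2 fold change 2.72, edgeR, adjusted p = 0.0155). Its call was lost without KO control library 1 (adjusted p = 0.0613) and without KO control library 2 (0.0943), and held in the other 10 fits without 1 library. Bhlhe40, a factor known to restrain Il10, had 125 ± 49.96 CPM in KO MCD and 22.5 ± 4.57 CPM in KO control cells (adjusted p = 0.0909). Il21, a cytokine of helper T cells, had 24.4 and 27.2 CPM in KO MCD libraries and 0 counts in both KO control libraries (adjusted p = 0.169).

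The remaining lists place these values. Of 14 interleukin-2 receptor and STAT5 genes 9 were above 0 (median 0.41) and 0 were called. Il2rb, the signalling partner chain of CD25, had 449 ± 146 CPM in KO MCD and 239 ± 5.52 CPM in KO control cells, and Cish, a STAT5-induced inhibitor, had 42.5 ± 8.74 CPM in KO MCD and 6.17 ± 5.74 CPM in KO control cells. Of 9 tested ligands and receptor partners 5 were above 0 (median 0.54) and 0 were called. Il10ra, the ligand-binding chain of the interleukin-10 receptor, had 54.8 ± 32.6 CPM in KO MCD and 6.32 ± 3.97 CPM in KO control cells. Of 16 partners and relatives of Foxp3 and the Ikaros factors 5 were above 0 (median -0.21) and 0 were called. Ikzf3, the Aiolos relative of Helios, had 825 ± 30.1 CPM in KO MCD and 438 ± 49.1 CPM in KO control cells, and Foxp1, a forkhead factor of resting T cells, had 233 ± 29.8 CPM in KO MCD and 466 ± 17.3 CPM in KO control cells.

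Effector and naive genes were read beside them. Of 18 effector and tissue-homing genes 16 were above 0 (median 1.04), and 2 were called: Rgs1, a regulator of chemokine signalling in tissue T cells, rose to 485 ± 0.336 CPM in KO MCD cells, against 73.6 ± 4.56 CPM in KO control cells (edgeR, adjusted p = 0.00667), and the chemokine gene Ccl5 rose to 147 ± 26.4 CPM, against 28.7 ± 4.47 CPM (adjusted p = 0.0357). Ccl5 was not called without KO control library 1, KO control library 2 or KO MCD library 2 (adjusted p = 0.269, 0.147 and 0.146). Of 11 naive genes 0 were above 0 (median -1.19) and 0 were called. Satb1, a chromatin organiser of naive T cells, had 571 ± 64.9 CPM in KO MCD and 1441 ± 70.0 CPM in KO control cells (adjusted p = 0.0909). Whether the share of naive cells in the sort had a part in the values of the 8 genes was not tested.

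**Figure D4:**
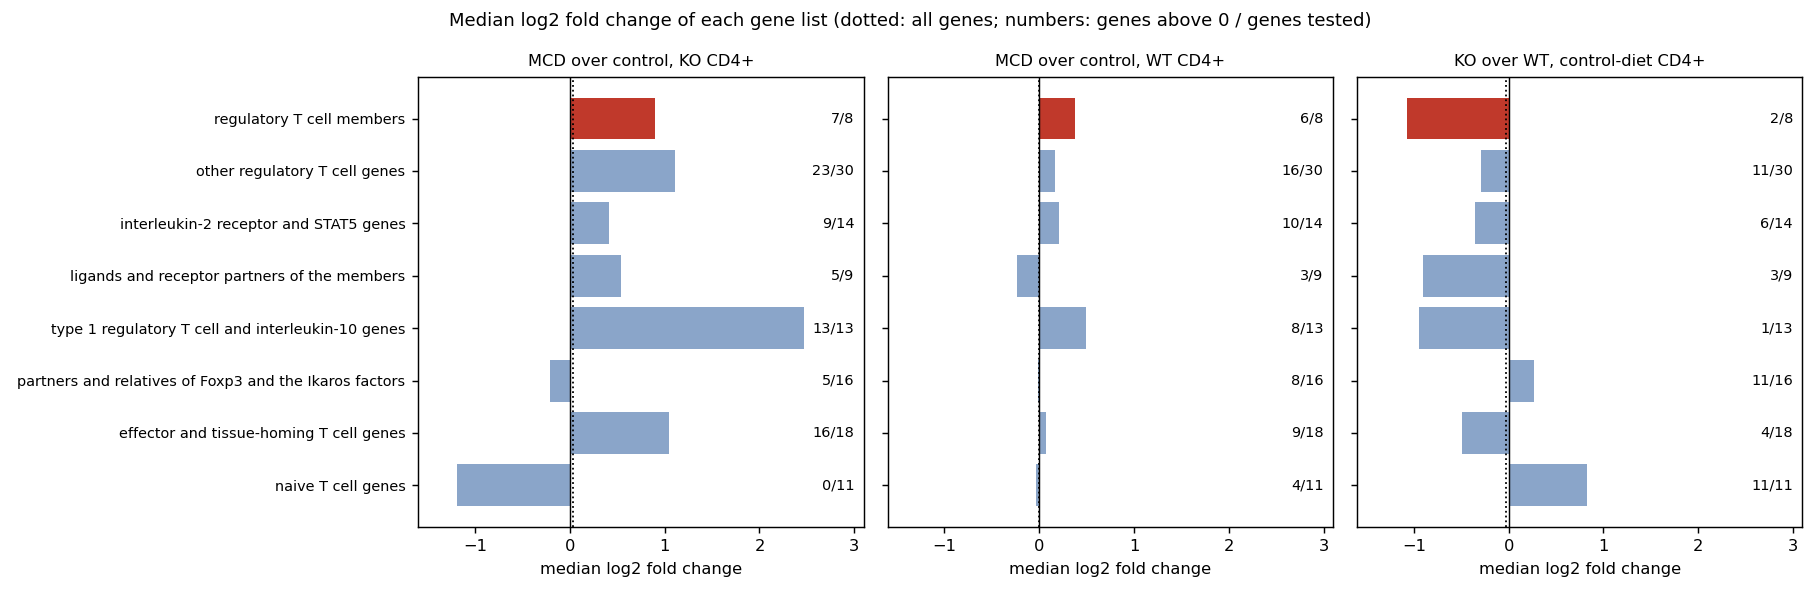
Median log2 fold change (horizontal axis) of the 8 genes (red) and of 7 related lists (blue) in 3 comparisons of CD4+ T cells, with the number of genes above 0 out of those tested at the right and the median of all genes as a dotted line. Between the diets in KO cells, type 1 regulatory T cell and interleukin-10 genes lie at 2.47 and naive genes at -1.19. Between KO and WT cells on the control diet these 2 lists lie at -0.95 and 0.83. Both comparisons use the KO control libraries.

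Between KO and WT cells on the control diet, which share the KO control libraries with the diet comparison above, the 30 further regulatory genes had a median log2 fold change of -0.30, with 11 above 0 and 1 called. Of the 8 genes themselves 2 were above 0, against 46.9% of all genes. Fgl2 fell to 14.5 ± 3.89 CPM in KO cells, against 122 ± 27.7 CPM in WT cells (edgeR, adjusted p = 0.0417). Type 1 regulatory T cell and interleukin-10 genes had 1 of 13 above 0 (median -0.95) and 0 called. Effector genes had 4 of 18 above 0 (median -0.50), and naive genes had 11 of 11 above 0 (median 0.83) and 0 called. The effector gene Itga1, an integrin of tissue-resident T cells, fell to 9.89 ± 5.79 CPM in KO cells, against 101 ± 40.7 CPM in WT cells (adjusted p = 0.0459). Both calls were lost without KO control library 1 (adjusted p = 0.141 each) and in 3 of 9 other settings, at adjusted p up to 0.119 for Fgl2 and 0.325 for Itga1. Between the diets in WT CD4+ T cells no listed gene was called. The 30 further genes had a median of 0.16 and the type 1 regulatory T cell and interleukin-10 genes one of 0.50.

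In γδ T cells against WT CD4+ T cells, 4 of the 30 further regulatory genes were called higher and 4 lower. Ctla4, the inhibitory receptor of regulatory T cells, fell to 4.14 ± 7.21 CPM in γδ T cells, against 116 ± 44.1 CPM in CD4+ T cells (edgeR, adjusted p = 0.00213). Il1rl1, the interleukin-33 receptor of tissue regulatory T cells, fell to 0.0303 ± 0.0354 CPM in γδ T cells, against 10.7 ± 11.7 CPM in CD4+ T cells (adjusted p = 0.00558), a call lost with log2(FPKM + 1) (adjusted p = 0.126). Tnfrsf1b rose to 256 ± 16.9 CPM in γδ T cells, against 71.0 ± 9.32 CPM in CD4+ T cells (adjusted p = 0.000363), and Fgl2 rose to 309 ± 108 CPM in γδ T cells, against 94.5 ± 40.7 CPM in CD4+ T cells (adjusted p = 0.00436). Il2rb likewise rose, to 1021 ± 245 CPM in γδ T cells, against 447 ± 60.2 CPM in CD4+ T cells (adjusted p = 0.00451). The γδ libraries also held 1671 to 3609 CPM summed over 10 dendritic cell genes, most of it Cd74, and 973 to 2520 CPM over 14 macrophage genes, against 70.6 to 106 CPM and 16.9 to 60.9 CPM in WT CD4+ libraries. Csf1r, a defining macrophage receptor, read 138 to 273 CPM in γδ libraries and 2.75 to 11.03 CPM in WT CD4+ libraries. The part of such cells in the γδ values of Il2ra, Tnfrsf18 or the other genes was not tested.

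Markers of other cells also differed between diets within CD4+ T cells. In KO cells the 14 macrophage genes summed to 33.4 to 68.7 CPM on the MCD diet, against 31.9 to 50.2 CPM on the control diet, and C1qa read 0 CPM in both MCD libraries and at most 0.195 CPM in control libraries. The 12 B and plasma cell genes summed to 264 to 292 CPM on the MCD diet, against 556 to 665 CPM on the control diet, most of it Ighm, while Cd79a read at most 1.25 CPM. The 12 genes of NK and innate lymphoid cells summed to 266 to 408 CPM on the MCD diet, against 156 to 184 CPM on the control diet. Most of that difference was Rora, at a mean of 208 CPM in KO MCD and 76.1 CPM in KO control cells. Ncr1 averaged 1.45 and 0.0244 CPM, while Gzma (0.598 and 7.07 CPM), Prf1 (2.81 and 8.94 CPM) and Gata3 (43.4 and 52.9 CPM) averaged lower on the MCD diet. Klrk1 (20.2 and 6.74 CPM), Klrd1 (15.3 and 6.19 CPM) and Il1rl1 (11.7 and 5.24 CPM) were higher in both KO MCD libraries. Klrb1c (27.9 and 5.97 CPM) and Klre1 (6.14 and 0.914 CPM) averaged higher, with overlapping libraries. The 4 CD8 T cell genes summed to 42.9 to 63.2 CPM on the MCD diet, against 7.60 to 10.5 CPM on the control diet, with Gzmk alone at 39.5 and 59.6 CPM in KO MCD libraries. Cd8a read 0.875 and 1.93 CPM in KO MCD libraries and 0.0487 and 2.07 CPM in KO control libraries. The 10 dendritic cell genes summed to 91.3 to 183 CPM on the MCD diet, with 1 of 10 at 0 in both libraries, and to 100.2 to 117 CPM on the control diet, with 3 of 10 at 0 in both. Among them Xcr1 read 3.50 and 39.8 CPM in KO MCD and 0.731 and 0.913 CPM in KO control libraries, and Siglech read 9.71 and 1.70 CPM in KO MCD and 0 and 0.240 CPM in KO control libraries. Flt3, Cd209a and Itgax, each at most 4.14 CPM in KO MCD libraries, were also higher in both of them. Clec9a went the other way, at a mean of 1.01 CPM in KO MCD and 2.30 CPM in KO control cells, without overlap. With overlapping libraries, Cd74 averaged lower on the MCD diet (67.7 and 81.1 CPM), and H2-Aa and Zbtb46 averaged higher. Hepatocyte genes summed to 2.62 to 17.3 CPM on the MCD diet and 32.6 to 40.6 CPM on the control diet, sinusoidal endothelial genes to 76.5 to 106 CPM on the MCD diet and 157 to 158 CPM on the control diet, and neutrophil and monocyte genes to 5.19 to 28.9 CPM on the MCD diet and 17.5 to 19.6 CPM on the control diet. Most of the endothelial sum was Pecam1, at a mean of 72.1 CPM in KO MCD and 137 CPM in KO control cells. Stab2 averaged 0.460 CPM in KO MCD and 0.585 CPM in KO control cells, and Kdr 0.621 and 0.146 CPM. The part of any of these cells in the values of Il10 and Tnfrsf18 was not tested.

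Some of these sums also stood apart between the diets in WT cells. Hepatocyte genes summed to 1.08 to 1.85 CPM on the MCD diet, with 6 of 10 at 0 in both libraries, and to 15.1 to 26.4 CPM on the control diet, with 1 of 10 at 0 in both. Alb, the gene of albumin, read 0.589 and 0.138 CPM in WT MCD and 21.2 and 12.9 CPM in WT control libraries. Macrophage genes summed to 16.9 to 21.9 CPM in WT MCD and 47.4 to 60.9 CPM in WT control libraries, and neutrophil and monocyte genes to 28.1 to 37.4 CPM in WT MCD and 76.3 to 79.5 CPM in WT control libraries. Most of the neutrophil and monocyte sum was Mmp9, at a mean of 20.6 CPM in WT MCD and 58.0 CPM in WT control cells. In each of these groups 5 of the 10 genes were at 0 in both libraries, S100a8 and S100a9 among them. Ly6c2, Il1b and Clec4e averaged higher on the MCD diet. Dendritic cell genes summed to 70.6 to 88.2 CPM in WT MCD and 94.8 to 106 CPM in WT control libraries, and CD8 T cell genes to 18.7 to 29.6 CPM in WT MCD and 6.94 to 8.40 CPM in WT control libraries. Sums overlapped between the WT diets for B and plasma cells, NK and innate lymphoid cells and sinusoidal endothelium. Their part in the values of the 8 genes was not tested.

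Over the 8 CD4+ libraries the 8 genes did not follow 1 pattern. The highest Pearson correlation of log2 CPM between any pair was 0.74, between Tnfrsf18 and Il10, followed by 0.67 between Ikzf2 and Tnfrsf18, 0.64 between Tnfrsf4 and Il10 and 0.64 between the neighbours Tnfrsf18 and Tnfrsf4. Foxp3 correlated with Il10 at 0.39, with Tnfrsf18 at -0.10 and with Il2ra at -0.60, the lowest of all pairs. Genes most like Foxp3 over all 12 libraries were Lrig1, Ccnl2, Il1rl2, Proser3 and Slamf6, with r of 0.98 to 0.96, and over the 8 CD4+ libraries Ppp2r5c, Zfp493, Ripk2, Fam206a and Plcg2, with r of 0.96 to 0.90. Plcg2 was low in CD4+ T cells, from a mean of 0.0446 CPM in WT control to 3.02 CPM in WT MCD cells. It averaged 33.8 CPM in γδ MCD and 37.7 CPM in γδ control cells. Over 12 libraries the most like Tnfrsf18 were Cdk8, Icosl, Fv1, Ntng2 and Ralgapa1 (r of 0.87 to 0.86), and the most like Il10 were Mtg1, Adgrg1, Syt11, Asns and Ildr1 (0.92 to 0.90). These were ranked among 9688 genes, over libraries that share diets and sorts, and are descriptions.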

How the data were processed

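RNA was measured in sorted T cells lysed directly after flow cytometry. Per the submitters' processing notes, bcl2fastq, STAR, featureCounts and DESeq2 were used on mm10 (GRCm38), with no versions given. The authors deposited raw counts per gene and FPKM values. Between libraries the deposited FPKM differed from the counts by the factors of DESeq2's size factors, and FPKM served for levels between genes and as an alternative. Groups came from the labels.

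The filterByExpr rule of edgeR 4.0.16 (minimum count 10, minimum total 15) set which genes were tested. A single fit held the 12 libraries, with a coefficient for each group, under R 4.3.3 (TMM scaling, quasi-likelihood test, 2-sided), with Benjamini-Hochberg adjustment over 16218 genes. A prior count of 2 entered the log2 fold changes. Standard errors were derived from the fitted coefficients and the F statistic of the test, without that prior count. A printed log2 fold change divided by its SE therefore need not match the p-value. CPM were TMM-scaled, and ratios are of mean CPM. The scripts were tested on simulated data.

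The members, lists and rules were chosen with earlier results of these data known. All 8 genes are named. Of each related list, up to 4 genes with the smallest p could be named if the higher group averaged 5 CPM or more, and any past the threshold. Alternatives were RLE and non-mitochondrial scaling, DESeq2 1.42.0, no filter, a filter at 50 mean reads, only the groups compared, log2 FPKM with limma 3.58.1 (pseudocounts 1 and 0.1), a replicate block and each library left out. A fit of the 8 CD4+ libraries alone was chosen after seeing the data.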

Additional observations from a re-analysis of the deposited data

How the results depend on the processing

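Of 912 alternative values of 44 log2 fold changes, 846 kept the direction and the side of the threshold, 32 came to pass it, 32 no longer passed it and 2 changed direction. Both of the last were of Foxp3 between diets in KO cells, at 0.013 with non-mitochondrial totals and 0.14 without KO control library 2, within a range of -0.24 to 0.14 over fits without 1 library. The count of the 8 genes called between diets in KO cells, 0 in edgeR, was 2 in DESeq2 and 1 with no filter (Tnfrsf18), with log2(FPKM + 1) (Il10, adjusted p = 0.0452) or with the 8 CD4+ libraries alone, and 0 to 1 without 1 library. Averaged over genotypes it was 1 in DESeq2, with no filter, with only the groups compared and with the 8 CD4+ libraries, and 0 to 1 without 1 library. Between diets in γδ T cells it was 5 in DESeq2, 3 with no filter and 0 to 2 without 1 library. Between γδ and CD4+ T cells the count of 5 became 2 with only the groups compared, 3 with log2(FPKM + 1), and 3 to 5 without 1 library. The cause of these shifts was not tested. DESeq2 called 266 genes between diets in KO cells, against 6 in edgeR. In KO cells the libraries share only a number: deviations of equal numbers correlated at -0.0059 across 16218 genes, and the replicate block left the count of the 8 genes at 0. Il10, Foxp3 and Tnfrsf4 gave no value in fits that left only libraries at 0. In γδ MCD cells 7977220 and 9000102 non-mitochondrial counts, and groups of 2, limit what could be detected.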

Other observations

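Over the 8 CD4+ libraries the genes most like Il10 by Pearson correlation of log2 CPM were Dnajc2 (r of 0.98), Tnfrsf1b (0.97), Spp1, Tigit and Ccl5 (0.96 each), a ranking made after values were seen. Spp1, which encodes osteopontin, averaged 34.5 CPM in KO MCD and 0 CPM in KO control cells, and 0.868 CPM in WT MCD and 0 CPM in WT control CD4+ T cells. Tigit, an inhibitory receptor of regulatory and exhausted T cells, averaged 144 CPM in KO MCD and 20.3 CPM in KO control cells, and 76.0 CPM in WT MCD and 19.3 CPM in WT control CD4+ T cells.

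Flicr, a long noncoding RNA from the Foxp3 locus that is known to restrain Foxp3 in mouse regulatory T cells, was singled out after its values were seen. It gave 6 and 6 counts in KO MCD libraries and 223 and 32 counts in KO control libraries. WT CD4+ T cells had 102 and 12 counts on the MCD diet and 78 and 148 counts on the control diet. Its log2 fold change between diets in KO cells was -4.06 ± 2.31 (edgeR, adjusted p = 0.787). It shares exonic sequence with Foxp3 on the same strand, so its counts are uncertain.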
